A study of Mus musculus with 4 samples.

Results

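The epidermal differentiation complex is a cluster of genes for the structural proteins of the outer epidermis. Its members were examined here in cultured primary mouse keratinocytes. A gene was a member if it carried the only symbol of a row in either of the 2 comparison tables deposited by the authors and was an Lce, Sprr or numbered S100a gene, or Flg, Flg2, Hrnr, Lor, Ivl, Rptn, Crnn, Tchh or Tchhl1. S100a8, S100a9 and S100a7a were left out. Members were thus selected on measured values, since the tables list clusters at least 2-fold apart between WT untreated and WT with IL-4 (39 members) or between WT and KO with IL-4 (7 members, 6 of them in both). This gave 40 genes among 22206 transcript clusters, 3059 of which had a symbol of their own in the tables. They were 21 late cornified envelope (Lce) genes, 10 small proline-rich (Sprr) genes, 7 genes of the S100 fused type, and Lor and Ivl. No S100a gene remained, although 13 of the 60 RefSeq genes that meet the rule by symbol are S100a genes. The 20 RefSeq genes without a named row were not analysed here.

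The cultures came from male mice, wild type (WT) or labelled HMGB1 KO (KO), and were kept in EpiLife medium for 12 h, untreated or with recombinant interleukin-4 (rIL-4, 100 ng/ml). HMGB1 binds chromatin and, once outside the cell, signals as an alarmin. IL-4 drives type 2 immunity. The design text calls the mutant mice K5-HMGB1, and the construction of the allele, the age of the mice and any pooling are not given in the sources used here. RNA of each of the 4 groups, WT untreated, WT with IL-4, KO untreated and KO with IL-4, was hybridised to 1 Affymetrix Clariom S Mouse array. No value therefore has a replicate error, no difference below has a p-value, and precision is limited by the number of arrays.

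Keratinocytes that have stopped dividing make the proteins of this complex as they differentiate and flatten. Transglutaminases then cross-link loricrin, involucrin, the Sprr and the Lce proteins beneath the plasma membrane into the cornified envelope. The fused-type proteins join an S100 calcium-binding domain to long repeats, and the best known of them, filaggrin, bundles keratin filaments before it is broken down into small molecules that hold water. In human keratinocytes, IL-4 is known to lower the expression of filaggrin, loricrin and involucrin.

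The values are deposited log2 expression values, and a difference is called 2-fold where it reaches 1 on that scale. The words "rose" and "fell" are kept for differences of at least that size. The background for each count was the 11456 clusters with at least 1 value of 5.33, the overall median, or more, and all 40 members were among them. The 95th percentile of 5222 negative control rows was 9.21, and a gene with both values below it is called dim. Of these control rows, 23.1% to 27.7% differed 2-fold in a comparison of 2 arrays. Values above 16 exceed a 16-bit scanner count, and their scale is uncertain. Of the 40 members, 17 had at least 1 array under 9.21, 12 had at least 1 above 16, and 11 stayed between these limits on all 4 arrays. Where 1 value of a pair lies outside these limits, the size of the difference is uncertain. The genotype label was checked on Hmgb1, which had 14.71 in WT untreated and 14.17 in WT with IL-4, against 7.97 and 7.60 in the KO arrays.

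All 40 genes lie on chromosome 3 in the RefSeq annotation of GRCm38.p6, between positions 92080271 and 93471980, a span of 1391.7 kb. From Lor onward the order is the Sprr2 genes, Sprr1b, Sprr1a, Sprr4, Ivl, Lce6a, 13 Lce1 genes, the 6 Lce3 genes, Lce1m, Crnn, Flg2, Flg, Hrnr, Rptn, Tchh and Tchhl1. RefSeq promoter sequences existed for 38 of the 40, all but Lce1f and Sprr2g, and the 250 bases before each start site were searched on both strands. The AP-1 motif TGANTCA was found in 15 of the 38 and in 6.75% of all 32851 promoters. By subfamily, both Lor and Ivl, 5 of 7 fused-type genes and 8 of 9 Sprr genes (all but Sprr4) held it, and 0 of 20 Lce genes did. In the Sprr2 genes it began between bases -198 and -193. The TATA motif TATAAA was present in 18 of the 38, against 12.4% of all promoters, and in 4 of the 20 Lce promoters. Instead, 15 of the 20 Lce promoters held ATAAAAG, a motif chosen after the sequences were seen, and 4.83% of all promoters held it. It overlaps TATAAA where a T comes before it, and each of the 15 Lce promoters had a match that began between bases -30 and -28. The KLF motif CACCC was in 16 of the 38 and 52.0% of all promoters. The GRHL motif AACCNGTT was found in Rptn only, and 1.79% of all promoters held it. The STAT motif TTCNNNGAA was found in Lce1l only (7.02% of all promoters), and its form with a spacer of 4 bases in 0 of 38 (5.85%). A match describes the letters in this window and does not show that a factor binds there.

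The 8 promoters below, each from base -200 to base -1 before the start site in GRCm38.p6 (RefSeq), are printed because they belong to genes on which the comparison of the genotypes with IL-4 turns. Lor, Hrnr and Rptn were higher in KO and Sprr1b and Sprr2h lower, while Lce1k had the highest value of the Lce1 genes in that comparison and Lce3f the lowest of the Lce3 genes. Lce1g shows the ATAAAAG stretch of the Lce1 genes. Capitals mark the AP-1 motif, the TATA motif and the ATAAAAG stretch, and Lce1k has none of them.
Lor (chr3:92083143-92083342, minus strand): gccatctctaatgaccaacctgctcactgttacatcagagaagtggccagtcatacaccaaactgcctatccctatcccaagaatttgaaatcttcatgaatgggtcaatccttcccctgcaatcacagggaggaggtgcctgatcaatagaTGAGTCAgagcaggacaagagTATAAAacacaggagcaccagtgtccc
Hrnr (chr3:93319549-93319748, plus strand): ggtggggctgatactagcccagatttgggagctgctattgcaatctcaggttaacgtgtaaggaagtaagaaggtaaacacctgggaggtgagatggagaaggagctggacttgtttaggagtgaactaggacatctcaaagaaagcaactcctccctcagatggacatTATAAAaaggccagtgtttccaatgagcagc
Rptn (chr3:93393499-93393698, plus strand): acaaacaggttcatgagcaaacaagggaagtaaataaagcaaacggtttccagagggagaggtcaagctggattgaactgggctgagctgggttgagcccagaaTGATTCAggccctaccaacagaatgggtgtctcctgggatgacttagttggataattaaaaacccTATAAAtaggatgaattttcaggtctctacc
Sprr1b (chr3:92438780-92438979, minus strand): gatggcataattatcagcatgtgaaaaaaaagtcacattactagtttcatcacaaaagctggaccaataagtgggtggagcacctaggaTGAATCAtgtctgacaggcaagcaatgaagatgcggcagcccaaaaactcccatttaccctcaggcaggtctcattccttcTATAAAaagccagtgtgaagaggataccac
Sprr2h (chr3:92385485-92385684, plus strand): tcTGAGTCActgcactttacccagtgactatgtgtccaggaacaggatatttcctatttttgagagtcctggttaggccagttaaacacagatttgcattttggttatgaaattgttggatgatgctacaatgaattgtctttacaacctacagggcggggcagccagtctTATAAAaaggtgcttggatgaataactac
Lce1g (chr3:92752339-92752538, minus strand): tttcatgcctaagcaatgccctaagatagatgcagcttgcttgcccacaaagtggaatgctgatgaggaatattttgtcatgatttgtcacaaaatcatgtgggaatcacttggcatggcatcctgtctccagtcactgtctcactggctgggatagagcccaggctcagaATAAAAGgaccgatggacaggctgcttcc
Lce1k (chr3:92807892-92808091, minus strand): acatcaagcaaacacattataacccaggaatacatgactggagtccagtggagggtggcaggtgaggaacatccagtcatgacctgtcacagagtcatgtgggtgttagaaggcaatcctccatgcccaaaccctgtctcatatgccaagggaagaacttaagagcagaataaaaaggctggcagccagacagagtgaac
Lce3f (chr3:92992017-92992216, plus strand): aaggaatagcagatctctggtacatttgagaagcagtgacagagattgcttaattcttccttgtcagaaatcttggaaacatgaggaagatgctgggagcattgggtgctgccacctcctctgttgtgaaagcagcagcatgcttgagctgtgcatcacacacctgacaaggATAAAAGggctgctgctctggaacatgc

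In WT cultures, IL-4 was set against no treatment to show the response of unmodified keratinocytes. Envelope, filaggrin-type, Sprr and Lce genes were all lower with IL-4, and 39 of the 40 members fell. This count follows from the choice of members, since 39 were named through the authors' table of this same comparison, which lists clusters at least 2-fold apart. Of all 11456 clusters, 9.39% fell and 10.9% rose. The median difference of the 40 was -3.53, against 0.09 for all clusters, and became -2.11 with values below 9.21 set to 9.21 and those above 16 set to 16 (limited values). Closest to the threshold were Lce1m (-1.23), Lce3a (-1.33) and Sprr1a (-1.50). The exception was Crnn, which encodes cornulin, a protein of squamous epithelia. It differed by 0.11 in WT, was dim on all 4 arrays and was named through the genotype table.

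**Figure D1:**
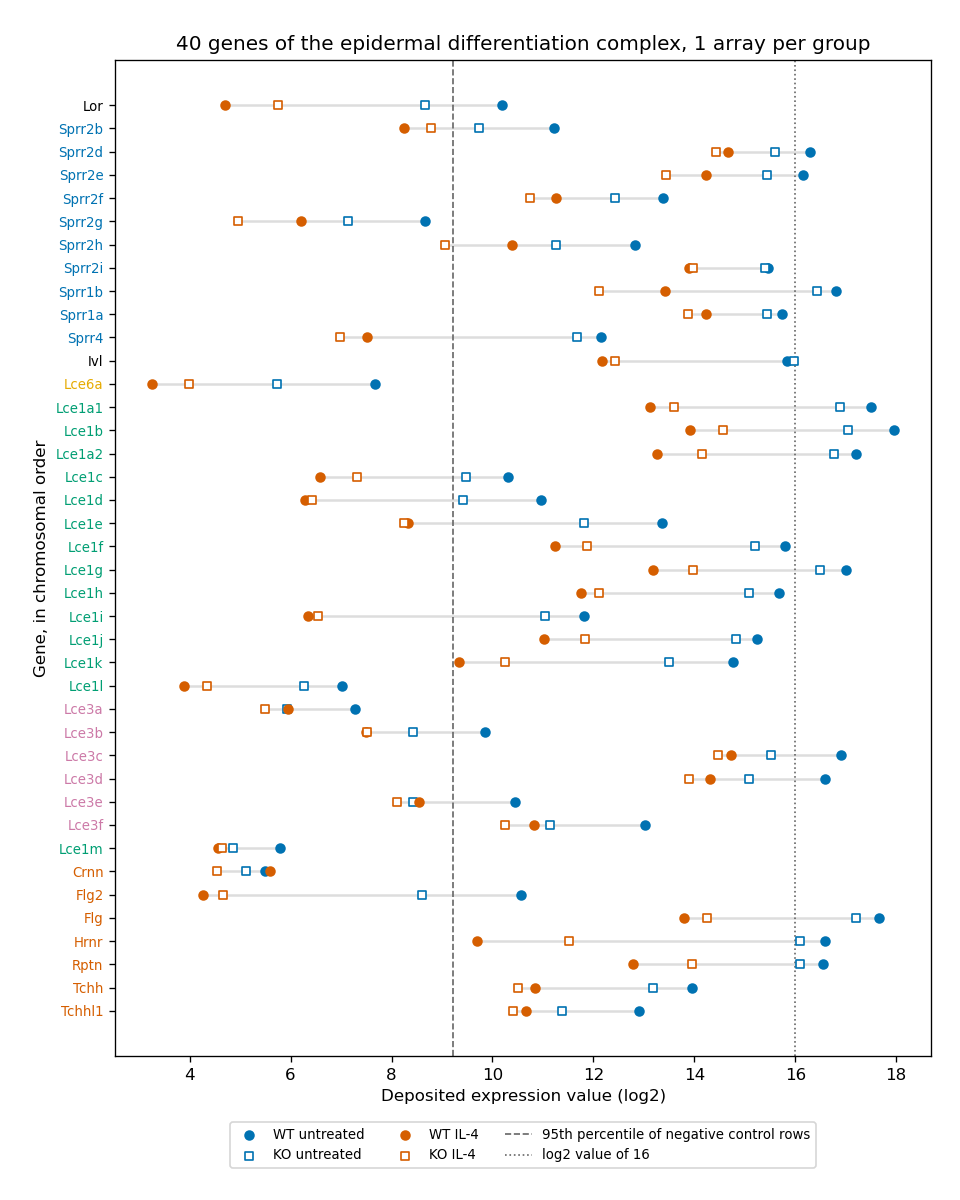
Deposited log2 expression value (horizontal axis) of the 40 genes in chromosomal order on each of the 4 arrays, with name colours by subfamily. Blue marks untreated and orange IL-4 arrays, circles WT and squares KO, and the vertical lines stand at 9.21 and 16. In 37 of the 40 genes both orange symbols lie to the left of both blue symbols.

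In KO, IL-4 was compared with untreated on 2 arrays that the WT table did not use. All 40 genes were below 0, as were 45.4% of all clusters and 93.6% of the 1076 clusters that had fallen in WT. Of the 40 genes 32 fell and 0 rose, while 9.51% of all 11456 clusters fell and 9.12% rose. The share that fell was 66.8% among those 1076. The median of the 40 was -2.20, against 0.07 for all clusters and -1.45 for those that had fallen in WT. The 1076 include the 39 members that fell in WT, and the median of the 1037 others was -1.43. Both IL-4 arrays lay below both untreated arrays for 37 members, and they did so in 25.3% of all clusters. The 3 others were Crnn, Lce3a and Lce3e. Over the 39 genes named through the WT table, the WT and KO differences had a Pearson's r of 0.83, given as a description of genes that share 4 arrays and, in part, sequence. The difference was smaller in size in KO for 35 of the 39. Choosing genes for a fall in WT favours this order, and 71.7% of the 1076 clusters showed it.

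**Figure D2:**
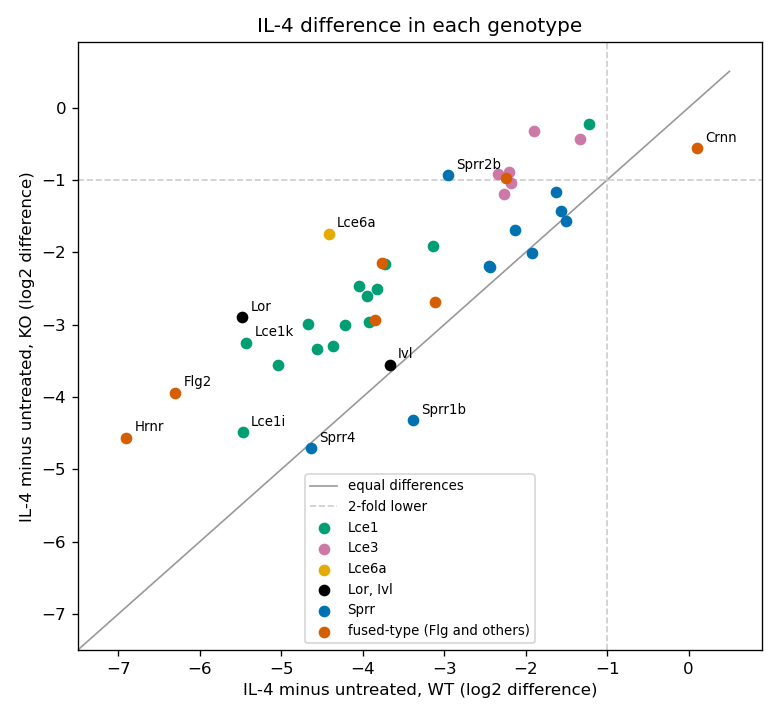
IL-4 minus untreated (log2 difference) in WT on the horizontal and KO on the vertical axis, 1 point per gene, coloured by subfamily, with a solid line of equal differences and dashed lines at 2-fold lower. Lce1 genes, Hrnr, Flg2, Lor and Lce6a lie above the solid line, Ivl, Sprr4 and most Sprr2 genes lie close to it, and Sprr1b lies below it.

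Loricrin, the glycine-rich protein encoded by Lor, and involucrin, an early scaffold of the envelope, had different patterns. Lor had 10.19 in WT untreated, 4.71 in WT with IL-4, 8.66 in KO untreated and 5.76 in KO with IL-4. It was above 9.21 on the WT untreated array only, and its IL-4 difference was -5.48 in WT and -2.90 in KO, the second of these being dim. Ivl had 15.84 in WT untreated, 12.17 in WT with IL-4, 15.98 in KO untreated and 12.42 in KO with IL-4. The genotypes were nearly alike for Ivl, which fell in both (-3.67 in WT and -3.56 in KO).

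The fused-type genes Hrnr and Flg2 had the most negative differences of all members in WT, but the untreated value of Hrnr was above 16 and the IL-4 value of Flg2 below 9.21, so their rank is uncertain. Hrnr, which encodes hornerin, had 16.60 in WT untreated, 9.69 in WT with IL-4, 16.09 in KO untreated and 11.52 in KO with IL-4, so that it fell in both genotypes (-6.90 and -4.56). Flg2, the filaggrin relative, had 10.57 in WT untreated, 4.27 in WT with IL-4, 8.60 in KO untreated and 4.66 in KO with IL-4. It fell in WT (-6.30) and in KO (-3.94), with the KO pair dim. Flg, the filaggrin gene, had 17.65 in WT untreated, 13.80 in WT with IL-4, 17.19 in KO untreated and 14.25 in KO with IL-4. For Flg both untreated values lie above 16, and the differences were -3.85 in WT and -2.94 in KO. Rptn, which encodes repetin, fell in WT (-3.76) and in KO (-2.15). Tchh, the trichohyalin gene of the hair follicle's inner root sheath, fell too (-3.12 and -2.69). Its neighbour Tchhl1 fell in WT (-2.24) and differed by -0.98 in KO. In KO, 5 of the 7 fused-type genes fell.

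The Sprr genes encode short proteins that bridge other envelope proteins. Their median was -2.29 in WT and -1.85 in KO, and 9 of 10 fell in KO. Sprr4 fell in both (-4.64 and -4.71), but its IL-4 values (7.51 and 6.97) were below 9.21, so the sizes cannot be compared. Sprr1b had 16.81 in WT untreated, 13.43 in WT with IL-4, 16.44 in KO untreated and 12.11 in KO with IL-4. It was the member with the largest excess of the KO over the WT difference, with -3.38 in WT and -4.32 in KO, while Sprr1a fell less (-1.50 and -1.57). The 7 Sprr2 genes lay between -2.96 and -1.57 in WT and between -2.20 and -0.94 in KO. Sprr2b was the Sprr gene that did not fall in KO, with -0.94 there and -2.96 in WT. Its values were 11.21 in WT untreated, 8.25 in WT with IL-4, 9.73 in KO untreated and 8.79 in KO with IL-4. The Sprr2 genes are similar copies, and sharing of signal between their probes was not tested.

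The Lce proteins are small proteins added late to the envelope, and the Lce1 and Lce3 genes separated in size. This split was made with the values known. The 14 Lce1 genes had a median of -4.13 in WT, from -5.48 for Lce1i to -1.23 for Lce1m, and 13 of them fell in KO, with a median of -2.98. Lce1b is an example, with 17.96 in WT untreated, 13.91 in WT with IL-4, 17.05 in KO untreated and 14.58 in KO with IL-4. Lce1m, which lies beyond the Lce3 genes and apart from the other Lce1 genes, was dim on every array and differed by -0.22 in KO. The 6 Lce3 genes had a median of -2.20 in WT, from -2.34 to -1.33, and -0.90 in KO. Of these 6, only Lce3d (-1.20) and Lce3c (-1.05) fell in KO. Lce3d had 16.58 in WT untreated, 14.32 in WT with IL-4, 15.09 in KO untreated and 13.89 in KO with IL-4. Lce6a, dim on every array, fell in WT (-4.42) and in KO (-1.74). Probes of neighbouring Lce genes may share signal, which was not tested.

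**Figure D3:**
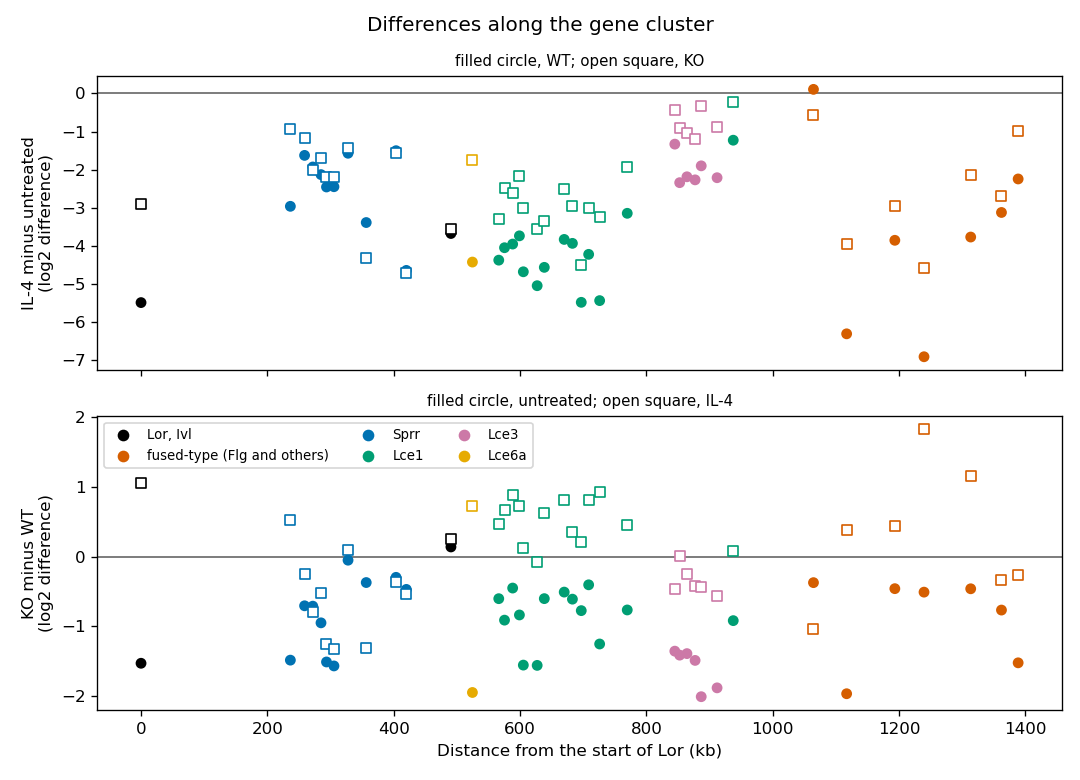
Log2 differences (vertical axes) of the 40 genes against distance in kb from the first base of Lor on chromosome 3, coloured by subfamily, with IL-4 minus untreated above and KO minus WT below. The Lce3 genes lie between 845.0 and 911.9 kb, with IL-4 differences closer to 0 than those of the Lce1 genes between 566.3 and 769.7 kb.

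The untreated cultures show the genotypes without the cytokine. Here 39 of the 40 genes were below 0 in KO, all but Ivl (0.14), as were 50.5% of all clusters and 79.0% of the 1076 clusters that had fallen in WT. Of the 40, 16 were at least 2-fold lower, while 0 were 2-fold higher. Of all 11456 clusters, 3.12% were 2-fold lower and 1.34% were 2-fold higher. The 16 became 9 with limited values and 4 at 3-fold. Limited values bring all 22206 clusters past the level filter, and 0.64% of them were 2-fold lower. At 3-fold 0.80% of the 11456 clusters were lower. The median of the 40 was -0.81, against -0.45 for the 1076 clusters, of which 19.5% were 2-fold lower. Without the members, the median of the 1037 others was -0.42. The clusters that had fallen in WT are the closer comparison, because the WT untreated array also enters the difference through which members were named. All 6 Lce3 genes were at least 2-fold lower, between -2.01 for Lce3e and -1.36 for Lce3a. Only 1 of these 6, Lce3f, had both values between the limits, so the sizes of the other differences are uncertain. The KO values of Lce3b (8.43) and Lce3e (8.43) were below the lower limit. The WT values of Lce3c (16.91) and Lce3d (16.58) were above the upper limit. Lce3f had 13.02 in WT untreated and 11.14 in KO untreated, a difference of -1.88. Among 14 Lce1 genes, 3 were 2-fold lower, namely Lce1e (-1.56), Lce1d (-1.56) and Lce1k (-1.25). The others past this size were Flg2 (-1.97), Lce6a (-1.95), Sprr2h (-1.57), Lor (-1.53), Tchhl1 (-1.53), Sprr2g (-1.51) and Sprr2b (-1.49). For Flg (-0.46), Hrnr (-0.51) and Rptn (-0.46) both values were above 16, so these differences do not show that the genotypes were alike. The differences of Lce3a, Lce6a and Sprr2g were dim.

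With IL-4, most Lce1 genes were above 0 in KO minus WT and most Lce3 and Sprr genes below, while the fused-type genes were divided, with 4 above and 3 below. Of all clusters 47.7% were above 0. Hrnr was higher in KO by 1.83, Rptn by 1.16 and Lor by 1.05, and these were the 3 members at least 2-fold higher. The 4 at least 2-fold lower were Sprr2h (-1.33), Sprr1b (-1.31), Sprr2g (-1.26) and Crnn (-1.04). The authors' table of this contrast was used in choosing members, and of all 11456 clusters 1.61% were 2-fold higher and 3.86% lower. Lor, Crnn and Sprr2g were dim, and with limited values 2 members were higher and 2 lower. Of all 22206 clusters with limited values, 0.23% were 2-fold higher and 0.62% lower. Lce genes passed 2-fold in neither direction, 0 of 21, yet 13 of 14 Lce1 genes were above 0, with a median of 0.55 and a highest value of 0.93 for Lce1k. The exception was Lce1e (-0.08). In 8 of the 14 both IL-4 values lay between 9.21 and 16, and all 8 were above 0, from 0.36 to 0.93. By contrast 5 of 6 Lce3 genes were below 0, with a median of -0.43, and Lce3b was at 0.01. The 3 Lce3 genes with both values between the limits lay from -0.57 to -0.25. Of 10 Sprr genes 8 were below 0, with a median of -0.53, and Sprr2b (0.53) and Sprr2i (0.09) were above. Flg (0.45) and Flg2 (0.39) were above 0, while Tchh (-0.33) and Tchhl1 (-0.26) were below. Over all 40 the median was 0.11, against -0.02 for all clusters. With limited values the medians of the Lce and of the fused-type genes became 0, and that of the Sprr genes -0.31. Among the promoters printed above, TGANTCA is held by Lor and Rptn, which were higher, and by Sprr1b and Sprr2h, which were lower. Hrnr, also higher, has no match. A link between the motif and the genotype difference was not tested.

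**Figure D4:**
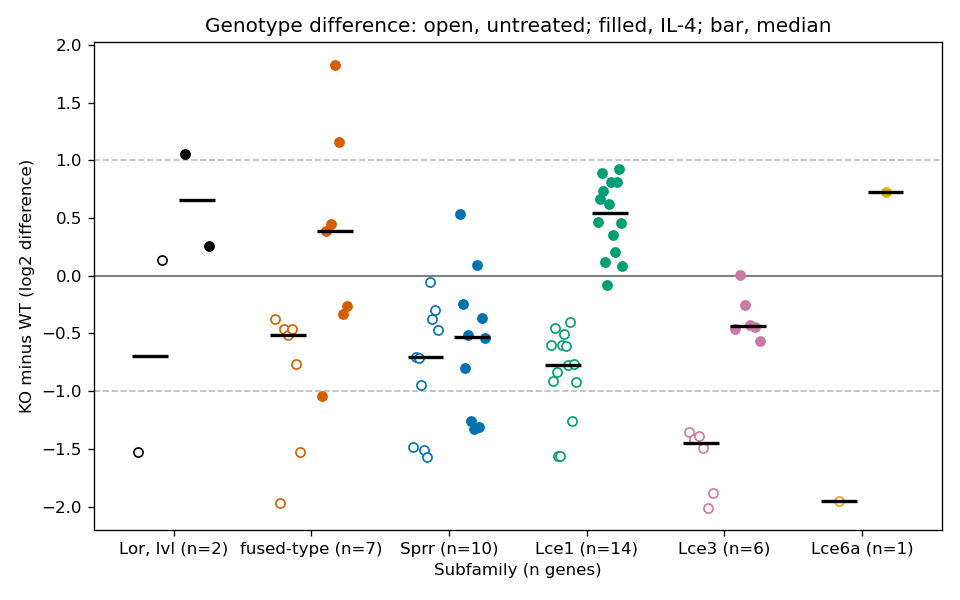
KO minus WT (log2 difference, vertical axis) for each gene by subfamily, with open symbols for untreated and filled symbols for IL-4 cultures, short bars at the medians and dashed lines at 2-fold. Lce1 medians were -0.77 untreated and 0.55 with IL-4, Lce3 medians -1.45 and -0.43, and Sprr medians -0.71 and -0.53.

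The IL-4 difference of WT was then subtracted from that of KO. The result was at least 2-fold above 0 for 24 of the 40 genes, that is, a less negative IL-4 difference in KO. It was at least 2-fold below 0 for 0. With limited values 12 were above and 1 below, and at 3-fold 8 were above. The matching shares of all clusters were 0.83% above and 0.99% below with limited values, and 0.995% above at 3-fold. In 37.5% of the negative control rows this difference, which uses 4 arrays, was at least 2-fold from 0. Of all 11456 clusters, 4.42% were 2-fold above 0 and 5.81% below, and of the 1076 clusters that fell in WT 23.0% were above. The median was 1.18, against 0.42 for those 1076 and 0.40 for the 1037 of them that are not members. With limited values the median of the members became 0.56. No such value is given here for the 1076, so 0.56 and 0.42 cannot be compared. Choosing members for a fall in WT favours values above 0 here. The 1076 clusters are not matched in size, with a median IL-4 difference of -1.71 in WT against -3.53 for the members. All 21 Lce genes were above 0, with 18 of them past 2-fold, from 0.90 for Lce3a to 2.68 for Lce6a. Values above 2 were also found for Lor (2.58), Flg2 (2.36), Hrnr (2.34), Lce1k (2.18) and Sprr2b (2.02). Among these and Lce6a, only Lce1k lay between 9.21 and 16 on all arrays, so their order is uncertain. The 10 Sprr genes had a median of 0.19, Sprr2b was the only Sprr gene past 2-fold, and Sprr1b was lowest at -0.94. Ivl was at 0.11. In the 11 members that stayed between 9.21 and 16 on all arrays, the median was 0.97 and 5 of 11 were past 2-fold. Each of these values rests on 4 arrays. It is also the KO minus WT difference with IL-4 less that in untreated cultures. The medians of these 2 were 0.11 and -0.81 over the 40, 0.55 and -0.77 for Lce1, and -0.43 and -1.45 for Lce3. With IL-4, 5 of the 6 Lce3 genes were still below 0 in KO minus WT.

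Other genes of cornification were taken from lists written with earlier results of these data known. A listed gene could be named only through the same 2 tables of clusters at least 2-fold apart, so its difference in WT, or between the genotypes with IL-4, is in part fixed by the naming, and the counts for WT are a description. Beside them, 9.39% of all clusters fell in WT, and 66.8% of those also fell in KO. Among 10 further genes of the complex, 7 were named, of which 6 fell and 1 rose with IL-4 in WT. S100a9 (-5.90 in WT and -4.73 in KO) and S100a8 (-4.37 and -4.41), the calprotectin subunits, fell in both genotypes. Both IL-4 values of S100a9, and that of S100a8 in KO (8.68), were below 9.21. S100a7a, the mouse psoriasin relative, rose (3.24 in WT and 4.42 in KO) and was dim on all arrays. Kprp, a keratinocyte proline-rich protein gene, fell too (-3.01 and -2.16), with untreated values above 16. Of 19 listed cross-linkers and partners of the envelope, 15 were named. All 15 fell in WT and 13 fell in KO, with medians of -3.55 and -3.51. They included the desmosomal cadherins Dsg1a (-6.26 and -6.61) and Dsc1 (-5.99 and -5.65), Krtdap (-6.09 and -6.73), and the transglutaminase Tgm1 (-4.56 and -4.08). The untreated values of Dsg1a, Dsc1 and Krtdap were above 16, so the sizes of their falls are uncertain. For these 15 the KO minus WT difference of the IL-4 differences had a median of 0.20 and 1 was past 2-fold.

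Of 5 suprabasal keratins 3 were named, and all 3 fell in WT and 2 in KO. Krt1 (-9.14 in WT and -9.36 in KO) had untreated values above 16 and IL-4 values below 9.21, which makes the size of its fall uncertain. Krt80 fell in WT (-1.10) and differed by -0.58 in KO. Krt10 fell in both (-5.17 and -5.24), with IL-4 values below 9.21, and was higher in KO by 1.97 untreated and by 1.90 with IL-4, the second of these dim. Of 15 genes of filaggrin processing, 9 were named, with 8 lower and 1 higher at 2-fold in WT and 8 lower in KO. Klk5, a serine protease of the outer epidermis, fell in WT (-4.55) and in KO (-4.23), with IL-4 values below 9.21. Hal, which encodes the enzyme that deaminates histidine released from filaggrin, fell (-4.23 and -2.80) and was dim. Casp14, a caspase of filaggrin breakdown, fell (-3.58 and -3.72). Prss8, a membrane serine protease, fell as well (-3.01 and -2.44), with its value in KO with IL-4 (8.95) below 9.21.

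Of 35 listed regulators of differentiation, 20 were named through 21 clusters, and 19 of these clusters fell in WT, a count that the naming favours, and 18 in KO. The nuclear receptor gene Rora had 2 clusters, of which the first (-4.10 and -3.26) and the second (-4.20 and -3.75) both fell. Dlx3, a homeobox gene, fell (-3.55 and -3.56) and was dim on all arrays. Ovol1, a zinc-finger factor gene, fell too (-3.25 and -3.71), and its IL-4 values, like those of Rora, were below 9.21. Of 9 AP-1 subunits 2 were named, again through the 2 tables. Jun fell in WT (-1.88) and in KO (-1.68), and Fos fell in WT (-1.96) and differed by -0.78 in KO, where it was dim.

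Markers of the cells in the cultures could be named only where the same tables listed them, so those seen had to differ in 1 of the 2 comparisons, and the sums below rest on them alone. Of 9 basal keratinocyte markers 3 were named, namely Lamb3, Itga3 and Itgb4, and all 3 were at 14.56 or higher on every array and above 16 on both IL-4 arrays. The log2 of their summed level was 16.42 in WT untreated, 18.34 in WT with IL-4, 16.93 in KO untreated and 18.23 in KO with IL-4. Of 9 fibroblast markers Vim and Sparc were named, and their summed level was 11.81 in WT untreated, 10.94 in WT with IL-4, 12.73 in KO untreated and 12.76 in KO with IL-4. Of 8 melanocyte markers 5 were named, with 13.13 in WT untreated, 12.09 in WT with IL-4, 13.13 in KO untreated and 13.65 in KO with IL-4. The other markers on these lists, and all 9 immune cell markers, had no named row and were not analysed here. In bulk RNA, fewer differentiated cells and less RNA of a gene per cell cannot be told apart, and the part of these markers in the differences above was not tested.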

How the data were processed

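RNA of 4 keratinocyte cultures, 1 per group, was hybridised as biotin-labelled cDNA made from 100 ng of total RNA. The authors deposited log2 values made with RMA in Affymetrix Expression Console 1.4, per the labels and the submitters' processing notes. The design text names the Affymetrix Exon Array Computational Tool instead. RMA makes the distributions of the arrays alike, so a global change in RNA is removed. The 2 deposited comparison tables (annotation na36 on mm10, per the file headers) hold log2 values and a signed fold change, treated as a score. They gave the gene symbols, and a row in them decided which genes could be members or be named. Their log2 columns lay within 0.068 of the matrix.

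Log2 differences were taken between arrays from the matrix (Python 3.11.15, pandas 2.3.3) and counted at 2-fold above a level filter of 5.33. With 1 array per group there was no test, no SD and no pseudocount. The members and lists were chosen with earlier results of these data known, and 2 listed genes are not reported here. All 40 members could be named. Of the 10 other lists, at most 4 genes each were named, by the size of the difference in WT. Counting and motif search were tested on simulated data. Alternatives were cyclic loess (limma 3.58.1), median centring, no level filter, a 3-fold threshold, limited values, and members of the WT table only.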

Additional observations from a re-analysis of the deposited data

Results flagged for a closer look

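Lor was the only member at least 2-fold apart between the genotypes in opposite directions in the 2 treatments. It was lower in KO without the cytokine (-1.53) and higher with it (1.05), in pairs without a common array. The opposition itself was not tested, since each value compares 2 arrays. Lor was above 9.21 on the WT untreated array only.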

How the results depend on the processing

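No paired analysis was possible because each group has 1 array. Cyclic loess, median centring, no level filter, and members of the WT table only kept each count within 1.5 times and each median within 0.38 of the reported value, a limit taken from the spread of all clusters and not from replicates. Of 190 recomputed values 167 stayed within these limits, 23 moved and 0 reversed. Part of the 167 could not move, since all members passed the level filter and a median does not depend on the fold threshold. At 3-fold, 4 members were lower in untreated KO in place of 16. With IL-4, 0 were lower in KO in place of 4 and 1 higher in place of 3. The IL-4 difference was less negative in KO by that size for 8 in place of 24. Of all 11456 clusters at 3-fold, 0.80% were lower in untreated KO. With IL-4, 0.84% were lower and 0.32% higher in KO. The difference of the IL-4 differences was above 0 by that size in 0.995%. Setting values below 9.21 to 9.21 and above 16 to 16 narrowed differences by construction. The median of the members became -2.11 in WT and -1.50 in KO, and 0.56 for the difference of the IL-4 differences. In WT the subfamily medians became -2.24 for the fused type, -2.09 for Lce, -2.32 for Lor and Ivl and -1.88 for Sprr. In KO they became -1.75, -1.20 and -1.78 for the first 3. The untreated count was then 9 lower in KO, the IL-4 count 2 lower, and the difference of the IL-4 differences 12 above and 1 below. Fused-type medians for KO minus WT became 0 in both treatments, and Lor and Ivl became 0.13 with IL-4. The difference of the IL-4 differences became 0.81 for Lce and 0.54 for Lor and Ivl. The alternative that keeps 1 of several members with near-identical proteins was not run, since no protein sequences were used here. Signal near the control rows limits, among others, Lor, Flg2, Lce6a, Lce1l, Lce1m, Lce3a, Sprr2g and Crnn.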
